A study of Mus musculus with 18 samples.

Results

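Car2, Ermap and Pklr were followed across Lin-Kit+ bone marrow cells that did or did not carry JAK2V617F. The genes were found by gene symbol, and each had 1 probe set in the deposited table, so that 3 of its 9636 genes are described here. That table holds 10335 probe sets, and how they were chosen from the array is not stated. All shares and adjusted p-values over all probe sets refer to this table only. They were chosen by their measured difference between the genotypes, with JAK2V617F+ cells higher, so that difference is given as a description and was not tested for them. The cells came from Balb/c mice with MPN that was established by a JAK2V617F retrovirus which also marks cells with GFP, so JAK2V617F- cells were the GFP- cells of the same marrow. Marrow of several mice per experiment was cultured in all groups with SCF (100 ng/mL) plus the cytokine IL-3 (50 ng/mL), untreated or with a TNFR1 or TNFR2 blocking antibody (BA) at 10 μg/mL, and then sorted. The 6 groups of genotype and treatment held 3 arrays each, from 3 experiments. In this model JAK2V617F is expressed from a retrovirus and not from the promoter of Jak2, and the age of the mice was not stated in the labels.

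Red cell precursors are driven by erythropoietin, whose receptor signals through JAK2 and STAT5. They then build up hemoglobin, a flexible membrane skeleton and the enzymes on which the mature cell depends once its nucleus and mitochondria are gone. Car2 encodes carbonic anhydrase II, a cytosolic enzyme that interconverts carbon dioxide and bicarbonate and is abundant in red cells. Ermap encodes the erythroid membrane-associated protein, an immunoglobulin and butyrophilin family member that carries the Scianna blood group in humans. Pklr encodes the pyruvate kinase of liver and red cells, the last enzyme of glycolysis, and its loss causes hemolytic anemia. Its red cell and liver forms start at separate promoters, with the red cell promoter upstream.

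In the GRCm38.p6 build, Car2 (probe set 1448752_at) lies at chr3:14886269-14900770, Pklr (1421258_a_at) at chr3:89136122-89146815 and Ermap (1418909_at) at chr4:119175457-119190013. RefSeq promoter windows were at hand for Ermap and Pklr and are shown because erythroid promoters often hold GATA and KLF factor motifs near the start. The 250 bases before each start of the promoter table are given 5′ to 3′ on the gene's strand, with matches to GATAA and CACCC on either strand in capitals (TTATC and GGGTG are their reverse complements). The Ermap window is chr4:119189996-119190245 on the minus strand, and the windows of the Pklr start sites are chr3:89135892-89136141 and chr3:89136373-89136622 on the plus strand. The starts of the promoter table lie inside the gene spans above, by 18 bases for Ermap and by 20 and 501 bases for Pklr, so the windows of Ermap and of the upstream Pklr start reach into the spans.
Ermap: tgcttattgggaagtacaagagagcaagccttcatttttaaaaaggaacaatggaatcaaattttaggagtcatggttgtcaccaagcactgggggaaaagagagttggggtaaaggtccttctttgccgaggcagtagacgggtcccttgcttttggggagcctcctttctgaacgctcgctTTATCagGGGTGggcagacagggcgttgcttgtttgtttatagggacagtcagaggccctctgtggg
Pklr, upstream start: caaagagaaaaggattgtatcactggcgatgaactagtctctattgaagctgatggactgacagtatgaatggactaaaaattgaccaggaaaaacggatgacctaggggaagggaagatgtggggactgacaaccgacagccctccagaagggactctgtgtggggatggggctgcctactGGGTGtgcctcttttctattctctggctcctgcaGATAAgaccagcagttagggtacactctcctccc
Pklr, downstream start: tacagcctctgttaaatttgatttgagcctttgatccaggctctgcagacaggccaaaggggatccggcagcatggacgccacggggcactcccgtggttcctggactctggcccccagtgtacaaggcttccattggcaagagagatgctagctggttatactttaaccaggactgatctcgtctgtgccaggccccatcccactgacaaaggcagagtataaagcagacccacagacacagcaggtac

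The Ermap window and the upstream Pklr window each held 1 match to GATAA and 1 to CACCC. In Ermap the GATAA match began 67 bases and the CACCC match 60 bases before the start, and in the upstream Pklr window they began 34 and 68 bases before it. The downstream Pklr window, which starts 481 bases further along, held neither. None of these windows held an E box (CANNTG) or the STAT motif TTCNNNGAA. Of 32851 promoter windows searched over the same 250 bases, 22.6% held GATAA, 52.0% CACCC, 66.2% CANNTG and 7.02% TTCNNNGAA. A match is a description of the letters and not a bound site. Which start sites were in use cannot be read from a single probe set.

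The deposited values are log2 signals per probe set, from 2.22 to 15.49, and the number of arrays limits the precision. Untreated JAK2V617F+ replicate 3 was excluded by the study for its quality and stood apart here, with a median signal of 6.05 against 7.41 to 7.75 on the 17 arrays used and a mean correlation with the others of 0.57 against 0.67 to 0.76. The labelled population was checked with Kit, the receptor of SCF, which had a mean log2 signal of 7.32 ± 1.94 (SD, n = 8) in JAK2V617F+ and 7.02 ± 1.87 (n = 9) in JAK2V617F- cells. The probe set of Jak2 read 8.82 ± 1.53 and 8.24 ± 1.22 (limma adjusted p = 0.763), and neither the labels nor the methods say whether it reads the retroviral transcript. In bulk samples, fewer cells of a type and less RNA per cell cannot be told apart.

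Car2 was strongly expressed in both genotypes and varied little. In JAK2V617F+ cells its log2 signals were 12.80 and 12.70 untreated, 12.48, 12.24 and 11.76 with TNFR1 BA, and 12.60, 12.33 and 10.83 with TNFR2 BA (replicates 1 to 3, with untreated replicate 3 left out). In JAK2V617F- cells they were 10.66, 10.97 and 10.78 untreated, 10.75, 10.62 and 11.13 with TNFR1 BA, and 10.25, 10.78 and 11.28 with TNFR2 BA. Among JAK2V617F+ arrays, TNFR2 BA replicate 3 was the single array below any JAK2V617F- array, and 3 of 9 JAK2V617F- arrays lay above it. The mean was 12.22 ± 0.65 (SD, n = 8) in JAK2V617F+ and 10.80 ± 0.30 (n = 9) in JAK2V617F- cells.

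Ermap had a wider spread and was at its highest in untreated JAK2V617F+ cells. Its log2 signals in JAK2V617F+ cells were 13.33 and 12.45 untreated, 11.08, 11.07 and 9.91 with TNFR1 BA, and 11.72, 12.04 and 10.66 with TNFR2 BA. In JAK2V617F- cells they were 10.47, 9.35 and 10.56 untreated, 9.82, 8.22 and 9.70 with TNFR1 BA, and 7.19, 4.65 and 9.35 with TNFR2 BA. The genotypes overlapped through TNFR1 BA JAK2V617F+ replicate 3, which lay below 2 of the 9 JAK2V617F- arrays. The mean was 11.53 ± 1.08 (SD, n = 8) in JAK2V617F+ and 8.81 ± 1.89 (n = 9) in JAK2V617F- cells.

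Pklr had a low signal on 8 of 9 JAK2V617F- arrays and a higher one on the JAK2V617F+ arrays. Its log2 signals in JAK2V617F+ cells were 8.11 and 9.93 untreated, 10.02, 8.61 and 11.35 with TNFR1 BA, and 12.76, 12.00 and 7.13 with TNFR2 BA. In JAK2V617F- cells they were 3.09, 3.06 and 8.49 untreated, 3.08, 3.49 and 5.20 with TNFR1 BA, and 3.08, 3.99 and 3.06 with TNFR2 BA. Only untreated JAK2V617F- replicate 3 reached the JAK2V617F+ range, above 2 of the 8 JAK2V617F+ arrays. The mean was 9.99 ± 1.97 (SD, n = 8) in JAK2V617F+ and 4.06 ± 1.81 (n = 9) in JAK2V617F- cells, whose median was 3.09. Values this close to the lowest signal in the table may understate a difference, since no detection calls were given.

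**Figure D1:**
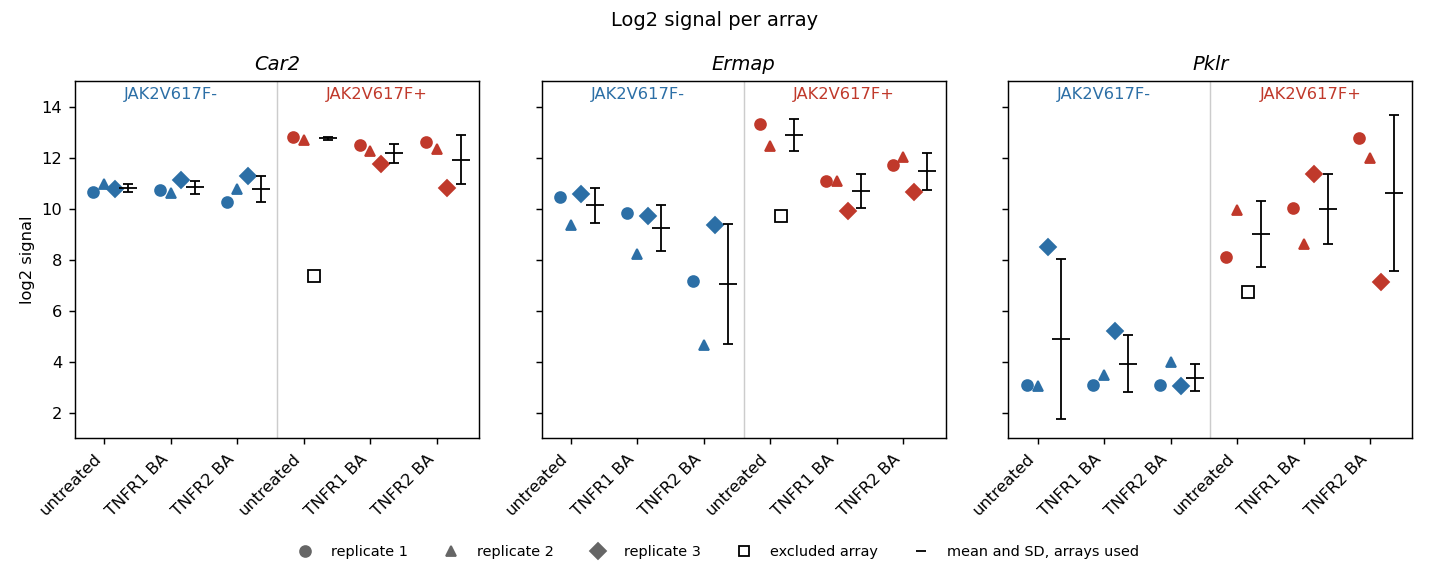
Log2 signal of Car2, Ermap and Pklr on each array (vertical axis) by genotype and treatment (horizontal axis). Marker shape gives the replicate number, open squares the excluded array, and bars mean and SD without that array (n = 2 for untreated JAK2V617F+ cells, n = 3 otherwise). Car2 stays between 10.25 and 12.80 on the 17 arrays used, whereas Pklr runs from 3.06 to 12.76.

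Averaged over the 3 treatments, the log2 signal of JAK2V617F+ cells was higher by 1.47 (SE 0.27) for Car2, by 2.87 (SE 0.54) for Ermap and by 5.82 (SE 0.96) for Pklr. These are 2.78-fold for Car2 and 7.32-fold for Ermap, and no fold is given for Pklr because most of its JAK2V617F- signals lay near the lowest of the table. Over all 10335 probe sets, limma called 0.3% higher and 0.0581% lower in JAK2V617F+ cells in this comparison, from which the genes were chosen. The difference was positive for each gene in each treatment. For Car2 it was 1.94 without BA, 1.33 with TNFR1 BA and 1.15 with TNFR2 BA, for Ermap 2.76, 1.44 and 4.41, and for Pklr 4.14, 6.07 and 7.25. None of these genes had all 8 JAK2V617F+ arrays above all 9 JAK2V617F- arrays, which held for 0.223% of probe sets. With the excluded array put back, the difference over the treatments was 0.88 for Car2, 2.52 for Ermap and 5.56 for Pklr, and in untreated cells 0.15, 1.70 and 3.37.

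The spread around the group means set how the groups could be ordered. This within-group SD was 0.51 for Car2, 1.20 for Ermap and 2.06 for Pklr on the log2 scale, against a median of 1.45 over all probe sets, and 6.81%, 37.3% and 79.2% of probe sets had a smaller one. For Car2 the group means ran from 12.75 in untreated JAK2V617F+ cells through 12.16 (TNFR1 BA) and 11.92 (TNFR2 BA) to 10.83, 10.81 and 10.77 in the JAK2V617F- groups. The JAK2V617F- groups were separated from each other by less than this SD, as were the BA-treated JAK2V617F+ groups. For Ermap the order was 12.89 untreated, 11.47 with TNFR2 BA and 10.69 with TNFR1 BA in JAK2V617F+ cells, then 10.13 untreated, 9.25 with TNFR1 BA and 7.06 with TNFR2 BA in JAK2V617F- cells. Steps larger than its SD followed the first and the fifth of these groups, and the step between the genotypes, 0.56, did not exceed it. For Pklr the means were 10.63 with TNFR2 BA, 9.99 with TNFR1 BA and 9.02 untreated in JAK2V617F+ cells, and 4.88 untreated, 3.93 with TNFR1 BA and 3.38 with TNFR2 BA in JAK2V617F- cells. Only the step of 4.14 between the genotypes exceeded its SD.

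To compare the experiments, the genotype difference was taken within each treatment and replicate number. Car2 was higher in JAK2V617F+ cells in 7 of 8 such pairs, and Ermap and Pklr in 8 of 8. Since the genes were chosen on this difference, these counts describe it and give it no support. The 8 pairs come from 3 experiments, and the share of all probe sets with such counts was not computed. The differences of Car2 in replicate 1 were 2.14 untreated, 1.73 with TNFR1 BA and 2.35 with TNFR2 BA, and in replicate 2 they were 1.72, 1.62 and 1.55. In replicate 3 they were 0.63 with TNFR1 BA and -0.45 with TNFR2 BA. Ermap differed by 2.86, 1.26 and 4.53 in replicate 1, by 3.10, 2.85 and 7.39 in replicate 2, and by 0.21 and 1.31 in replicate 3. Both genes thus had their smallest pair in replicate 3, with mean differences there of 0.09 for Car2 and 0.76 for Ermap, against 2.08 and 2.88 in replicate 1 and 1.63 and 4.45 in replicate 2. Pklr kept a large difference in the pairs used, with means of 7.21, 6.67 and 5.11. Replicate 3 has 2 pairs, since its untreated JAK2V617F+ array was excluded. On that array Car2, Ermap and Pklr read 7.37, 9.70 and 6.72, below the 10.78, 10.56 and 8.49 of untreated JAK2V617F- replicate 3. The pair left out thus ran the other way for all 3 genes.

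**Figure D2:**
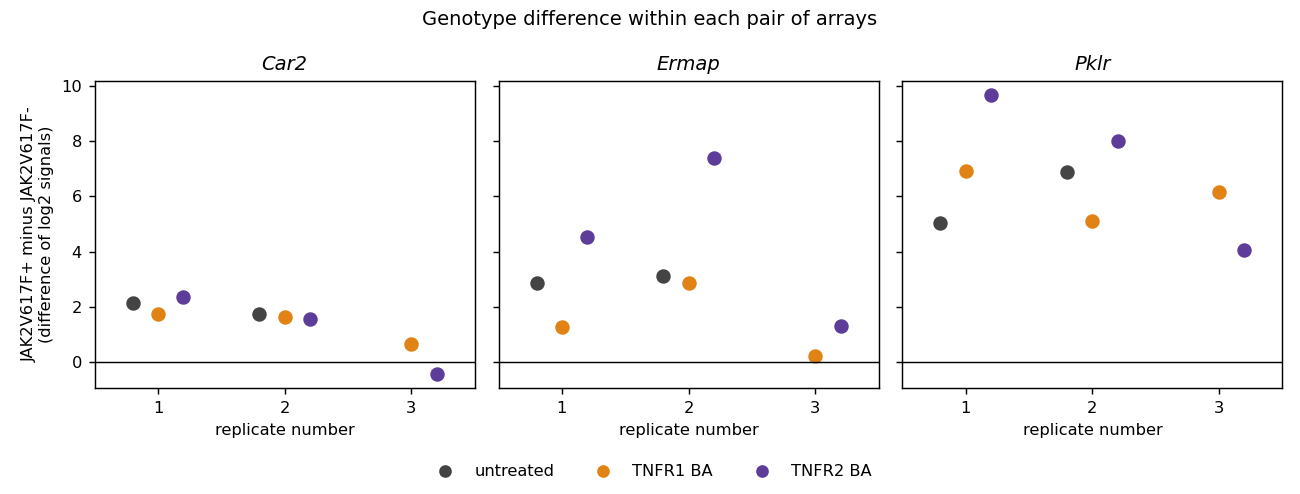
Difference of log2 signals, JAK2V617F+ minus JAK2V617F- (vertical axis), for each pair of arrays of the same treatment and replicate number (horizontal axis), coloured by treatment. The pairs of replicate 3 lie lowest for Car2 (-0.45 and 0.63), and Pklr has differences of 4.07 to 9.68 in the 8 pairs shown. The untreated pair of replicate 3, whose JAK2V617F+ array was excluded, is not shown.

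A genotype difference that depended on the replicate number was tested across all probe sets. Such dependence is separate from the mean difference, although some erythroid genes, not all, were already known to differ less in replicate 3. The moderated F was 5.13 for Car2 (limma adjusted p = 0.792), 6.15 for Ermap (adjusted p = 0.753) and 1.64 for Pklr (adjusted p = 0.905), and 0% of probe sets passed. At an unadjusted p under 0.05, 617 probe sets (5.97%) were counted, with Car2 and Ermap among them. Without TNFR2 BA JAK2V617F+ replicate 3 the F of Car2 dropped to 1.87. A shift of the replicate number common to both genotypes was called for 1.2% of probe sets and for 0 of the 3 genes (adjusted p = 0.934 for Car2, 0.639 for Ermap and 0.942 for Pklr).

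The BA comparisons were not used to choose the genes and could be tested. None of the 3 genes passed in any of them. In JAK2V617F+ cells, where limma called 0.00968% of probe sets for TNFR1 BA against untreated cells and 0.029% for TNFR2 BA, the difference of Ermap from untreated cells was -2.20 with TNFR1 BA (95% confidence interval -4.31 to -0.10, adjusted p = 0.716) and -1.42 with TNFR2 BA (-3.52 to 0.69, adjusted p = 0.991). Car2 differed from untreated cells by -0.59 (-1.64 to 0.46, adjusted p = 0.894) with TNFR1 BA and by -0.83 (-1.88 to 0.22, adjusted p = 0.979) with TNFR2 BA. All 3 arrays with either BA lay below both untreated arrays for Car2 and for Ermap. That arrangement held for 7.86% of probe sets with TNFR1 BA and for 7.27% with TNFR2 BA, and the exact permutation test gave p = 0.2 for both genes with both BAs, the smallest p that 2 arrays against 3 can give. The untreated side rests on 2 arrays, and with the excluded array included the Car2 differences became 1.20 and 0.96 and those of Ermap -1.14 and -0.35.

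For Pklr the JAK2V617F+ differences ran the other way and were wide, at 0.98 (-2.78 to 4.73, adjusted p = 0.962) with TNFR1 BA and 1.61 (-2.14 to 5.37, adjusted p = 0.991) with TNFR2 BA. The BA-treated arrays overlapped the untreated ones for this gene. Between the antibodies, TNFR2 BA minus TNFR1 BA was -0.24 for Car2, 0.79 for Ermap and 0.64 for Pklr in JAK2V617F+ cells (limma adjusted p = 1 for each, 0% of probe sets called, 452 at an unadjusted p under 0.05).

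In JAK2V617F- cells, the differences of Car2 were close to 0. Its difference from untreated cells was 0.03 (-0.91 to 0.96) with TNFR1 BA and -0.03 (-0.97 to 0.90) with TNFR2 BA, so changes of more than 1 log2 unit lay outside both intervals. Ermap differed by -3.06 (-4.95 to -1.18) with TNFR2 BA, with the 3 treated arrays below the 3 untreated ones, as for 4.03% of probe sets. After adjustment this did not pass (limma adjusted p = 1, 0% of probe sets called, 255 at an unadjusted p under 0.05 with Ermap among them), and the exact permutation test gave p = 0.1, the smallest that 3 arrays against 3 can give. Without TNFR2 BA JAK2V617F- replicate 2, the array at 4.65, the difference was -1.86. With TNFR1 BA the difference of Ermap was -0.88 (-2.76 to 0.999, adjusted p = 1), and its arrays overlapped those of untreated cells, while 4.99% of probe sets had all treated arrays lower. Pklr differed by -0.96 (-4.32 to 2.40) and -1.50 (-4.86 to 1.86). Both values turned positive without untreated replicate 3, the one untreated array with a high signal (range without 1 array or replicate number -1.87 to 0.85 with TNFR1 BA and -2.72 to 0.46 with TNFR2 BA).

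**Figure D3:**
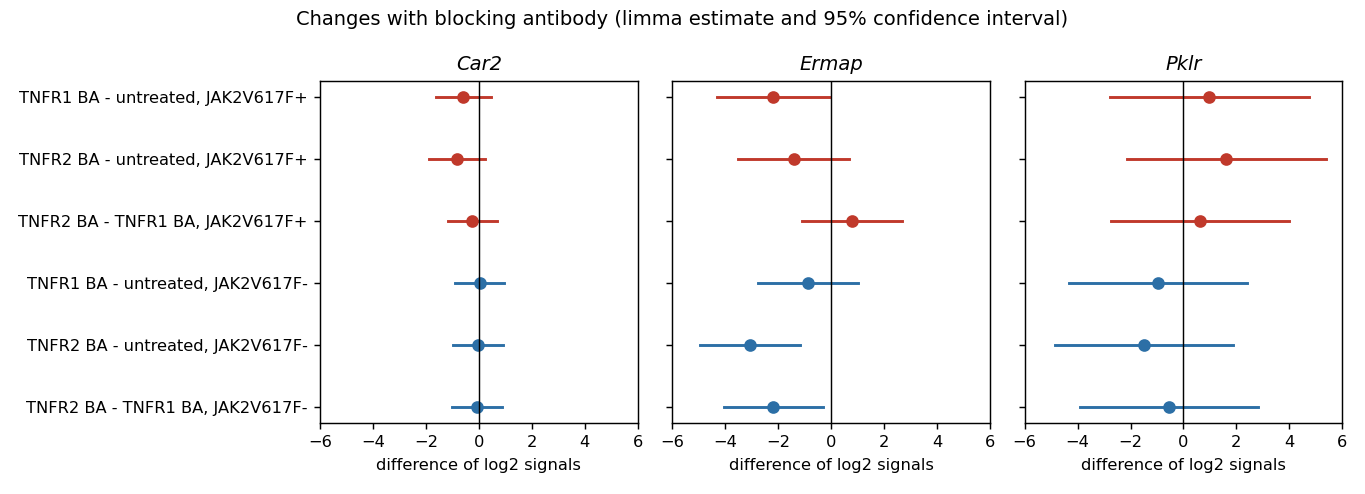
Difference of log2 signals with each BA against untreated cells and between the BAs (horizontal axis) for each gene, in JAK2V617F+ (red) and JAK2V617F- (blue) cells. Points are limma estimates and bars their 95% confidence intervals. The intervals of Car2 are narrow and hold 0, that of Ermap with TNFR2 BA in JAK2V617F- cells runs from -4.95 to -1.18, and those of Pklr span several log2 units.

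Within each replicate number, the signal of Ermap was lower with each BA than without it in 2 of 2 pairs of JAK2V617F+ and 3 of 3 pairs of JAK2V617F- arrays, where both BAs share the untreated arrays. Car2 was lower in 2 of 2 JAK2V617F+ pairs with each BA, and in JAK2V617F- cells in 1 of 3 pairs with TNFR1 BA and 2 of 3 with TNFR2 BA. Pklr was higher with TNFR2 BA in 2 of 2 JAK2V617F+ pairs (4.66 and 2.07) and with TNFR1 BA in 1 of 2, and in JAK2V617F- cells it was lower in 2 of 3 pairs with each BA. The share of all probe sets with such pair counts was not computed, so these counts are a description. Whether a BA acted differently in the genotypes was tested by interaction. The BA difference in JAK2V617F+ minus that in JAK2V617F- cells was -0.62 for Car2, -1.32 for Ermap and 1.93 for Pklr with TNFR1 BA (limma adjusted p = 0.949, 0.948 and 0.955), and -0.80, 1.65 and 3.12 with TNFR2 BA (adjusted p = 0.997 for each). No probe set passed for either BA (0% and 0%), with 540 and 396 at an unadjusted p under 0.05. TNFR2 BA minus TNFR1 BA in JAK2V617F- cells was -0.06 for Car2, -2.18 for Ermap and -0.55 for Pklr (adjusted p = 1 for each, 0% of probe sets called, 382 at an unadjusted p under 0.05).

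To see whether the genes were high or low on the same arrays, 6 relations were computed, 3 within each genotype. In JAK2V617F+ cells, Car2 and Ermap had r = 0.70 (exact permutation p = 0.0509, adjusted p = 0.306) and rho = 0.90 (exact permutation p = 0.00456, adjusted p = 0.0274) over 8 arrays. Without the 2 arrays farthest from the median of Car2, r was 0.77. With each array expressed as its deviation from the group mean, r was 0.81 (exact permutation adjusted p = 0.0406) and rho was 0.69 (adjusted p = 0.397). These tests treat the arrays as independent, although arrays of a replicate number come from the same experiment and both genes were lowest in replicate 3 with each BA. With deviations from the mean of each replicate number and permutation within it, r was 0.20 and rho 0.29 (exact permutation adjusted p = 0.694 and 0.75). No relation passed within experiments. The smallest p this permutation can give in JAK2V617F+ cells is 0.0139 before adjustment over 6 relations, so a single relation there could not pass on its own. No relation of Pklr with either gene passed in JAK2V617F+ cells (r = 0.39 with Car2 and -0.07 with Ermap, exact permutation adjusted p = 0.628 and 0.874, and rho = 0.12 and 0.02, adjusted p = 0.977 for both). For Car2 and Pklr, r was 0.72 and rho 0.60 with deviations from group means (exact permutation adjusted p = 0.137 and 0.397) and r was 0.41 within replicate numbers (adjusted p = 0.694). Without the 2 arrays farthest from the median of Car2, this r was -0.16, both for the signals and for deviations from group means. Without the 2 farthest for Ermap, r of Ermap and Pklr was 0.65 for the signals and -0.24 for the deviations. In JAK2V617F- cells r was 0.31 for Car2 and Ermap, 0.11 for Car2 and Pklr and 0.27 for Ermap and Pklr over 9 arrays (exact permutation adjusted p = 0.628, 0.874 and 0.628).

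**Figure D4:**
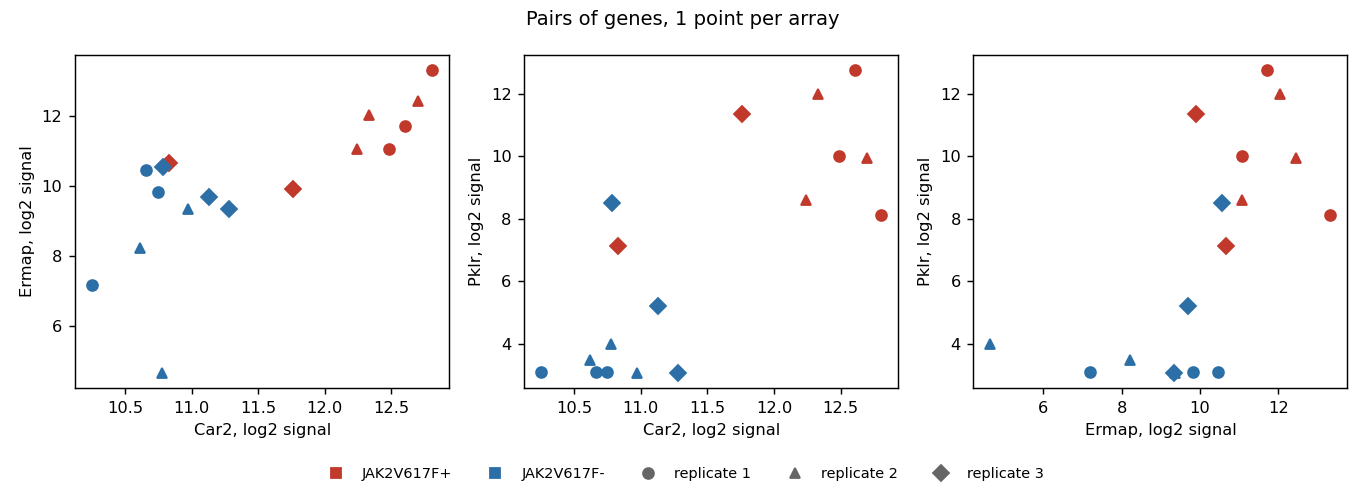
Log2 signals of each pair of genes plotted against each other, 1 point per array (17 arrays), coloured by genotype, with marker shape for the replicate number. Within JAK2V617F+ cells Ermap is higher where Car2 is higher (rho = 0.90, n = 8), against rho = 0.29 within replicate numbers.

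The genes whose signals ran most like each of them over the 17 arrays were ranked among 9635 other genes by Pearson's r, as a description, since the genotype difference enters every such value. For Car2 these were Zbtb32 (r = 0.91), Gdf3 (0.87), Mycn (0.87) and the beta globin gene Hbb-b2 (0.85), with Pklr at rank 15 (0.80) and Ermap at rank 32 (0.74). For Ermap they were Nmt2 (0.83), Slc45a4 (0.77), Atp1b2 (0.76) and Arhgap23 (0.75), with Car2 at rank 6 and Pklr at rank 59 (0.64). For Pklr they were Mycn (0.89), Maob (0.87), Lif (0.86) and Cpa3 (0.85), a mast cell protease gene, with Ermap at rank 109. When group means were removed, other genes led. They were Tfec (0.85), Rnaseh2b (0.83), Rc3h2 (0.83) and Nipa1 (0.83) for Car2, Srp19 (0.86), Tmem40 (0.84), the heme synthesis gene Urod (0.82) and Tle4 (0.82) for Ermap, and Slc22a23 (0.90), Timm44 (0.86), Tmc8 (0.85) and Vegfa (0.82) for Pklr. On that measure Car2 had r = 0.45 with Ermap and 0.48 with Pklr, and Ermap and Pklr had r = 0.09.

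The other genes of the red cell program were described by lists. These were drawn up with earlier results of these data known, so their counts, Podxl included, are a description. For genes other than the chosen 3, limma's test over all probe sets is given. Over all genes 50.6% had a positive difference, and 0.3% of probe sets were called higher in JAK2V617F+ cells. These shares stand beside the counts of each list that follows. Of 12 further genes of the erythroid membrane and cytoskeleton, 12 had a higher mean in JAK2V617F+ cells, with a median difference of 2.23 against 0.01 over all genes, and 0 passed. Those of smallest p were Ank1, the ankyrin that ties the membrane to spectrin (difference 4.09, adjusted p = 0.132), Rhd, a Rh blood group protein (2.73, adjusted p = 0.193), Kel, the Kell blood group protein (2.29, adjusted p = 0.202), and Add2, a beta adducin (3.001, adjusted p = 0.203). Slc4a1, the band 3 anion exchanger, which carries bicarbonate out of the red cell, differed by 2.17 (adjusted p = 0.467), and the transferrin receptor Tfrc by 0.35 (adjusted p = 0.599). Of 15 erythroid transcription factors, 12 had a positive difference and 0 passed, with a median of 0.71. Klf1, the factor that binds CACCC, differed by 3.23 and Tal1 by 1.70 (adjusted p = 0.0639 for both), the GATA1 cofactor Zfpm1 by 2.49 (adjusted p = 0.137), and Gata1 itself by 1.50 (adjusted p = 0.328).

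Of the globins, Hbb-b2 was higher by 1.52 in JAK2V617F+ cells (12.04 ± 0.65 against 10.52 ± 0.30, adjusted p = 0.0241), a difference close in size to that of Car2, while Hba-a2, an alpha globin gene, differed by -0.31 (adjusted p = 0.737). Of 15 heme and mitochondrial iron genes, 12 had a positive difference, 0 passed and the median was 0.43. Of 14 genes of the erythropoietin receptor and its signalling, 10 had a positive difference and Podxl, a sialomucin gene induced by erythropoietin, passed (5.58, adjusted p = 0.0004), whereas Epor differed by 2.61 with an adjusted p of 0.41. In both BA comparisons with untreated cells, in either genotype, 0 genes of the lists passed.

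**Figure D5:**
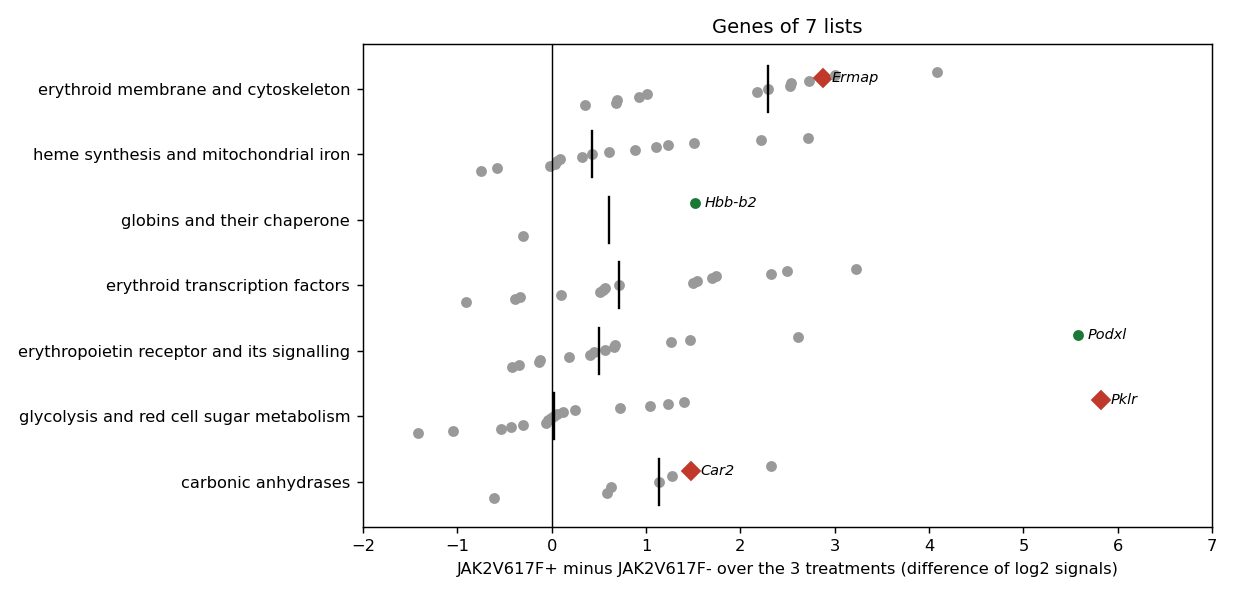
Difference of log2 signals between JAK2V617F+ and JAK2V617F- cells, averaged over the 3 treatments (horizontal axis), for the genes of 7 lists, 1 point per gene. Red diamonds are Car2, Ermap and Pklr, which were chosen on this difference, green points other genes that passed (Hbb-b2 and Podxl), grey points those that did not, and vertical bars list medians. The other glycolysis genes run from -1.42 to 1.41, and nothing is read from where the chosen genes lie.

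The pathway of Pklr was described without it, since Pklr was chosen on this difference and its size beside the pathway's was set by that choice. Of 16 other genes of glycolysis and red cell sugar metabolism, 8 had a positive and 8 a negative difference, with a median of 0.01 and 0 passing. Pkm, the pyruvate kinase of most other tissues, was at 13.85 ± 0.19 in JAK2V617F+ and 13.81 ± 0.17 in JAK2V617F- cells, a difference of 0.02 (adjusted p = 0.961). Hexokinase 1 (Hk1), the hexokinase of red cells, differed by 0.72 (adjusted p = 0.304). Among 6 other carbonic anhydrases, 5 had a positive difference and 0 passed, with Car1, the second red cell form, at 1.14 (adjusted p = 0.295) and Car9 at 2.33 (adjusted p = 0.301). Car4 was at the lowest value of the table on 10 of the 17 arrays and Car8 on 9. The butyrophilin genes Btn1a1 and Btnl9 did not share the direction of Ermap, with differences of -0.22 and -0.90 (adjusted p = 0.891 and 0.805).

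Markers of other cell types differed between the genotypes as well, in both directions. Their lists, too, were drawn up with earlier results of these data known, so the counts are a description. Over all genes 50.6% had a positive difference, and 0.3% of probe sets were called higher in JAK2V617F+ cells. Of 8 mast cell and basophil genes, 8 had a higher mean in JAK2V617F+ cells and 5 passed (Tpsb2, Tpsab1, Cma1, Cpa3 and Fcer1a). The mean log2 signal of the list ran from 11.32 to 12.52 in JAK2V617F+ and from 6.52 to 8.75 in JAK2V617F- arrays, and no marker was at the lowest value of the table on any array. Of 7 megakaryocyte genes, 7 had a higher mean and 0 passed (list range 4.55 to 8.05 and 4.45 to 5.33). Among them Vwf was at the lowest value of the table on 10 of the 17 arrays, and Gp1bb and Rab27b on 5 each. Of 5 B cell genes, 0 had a higher mean in JAK2V617F+ cells and 0 passed, with a median difference of -1.23 (list range 2.55 to 5.16 in JAK2V617F+ and 2.40 to 6.92 in JAK2V617F- arrays). Here Cd79a was at the lowest value on 12 arrays and Vpreb1 on 6. The 10 marker genes of monocytes, macrophages or dendritic cells included 4 with a positive difference, with a median of -0.28, and H2-Aa, an MHC class II gene, was lower (-3.02, adjusted p = 0.0352). None of 9 granulocyte, 7 stem and progenitor cell and 2 T and NK cell genes passed, with 4, 5 and 0 positive differences. The part of these cells in the differences of Car2, Ermap and Pklr was not tested. Without Ermap, the mean of the 12 other erythroid membrane genes ran from 6.59 to 9.18 in JAK2V617F+ and from 4.89 to 6.51 in JAK2V617F- arrays. With Ermap, the list mean was 6.31 on the excluded JAK2V617F+ array, inside the JAK2V617F- range of 5.15 to 6.76. How many other gene sets would part the genotypes in this way was not computed.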

How the data were processed

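The deposited log2 signals per probe set of Affymetrix mouse arrays came from the authors' run of Expression Console (per the submitters' processing notes) and were not changed. How they were normalized is not stated there, and they carry no depth or detection call. Gene symbols came from the platform annotation (9651 of 10335 probe sets with a single symbol, of which 9625 matched RefSeq genes of GRCm38.p6 by Entrez ID), and of several probe sets of a gene that of highest mean was taken. Car2, Ermap and Pklr, the gene lists and the tests were chosen with earlier results of these data known. Named genes of a list were the members, a set named in advance and up to 4 of smallest p.

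The 17 arrays used by the study were fitted with limma 3.58.1 in R 4.3.3 on 6 group means, with a variance trend and a threshold of 0.05 on p adjusted by Benjamini-Hochberg over 10335 probe sets. P-values measure the spread between arrays within a group, which come from different experiments. The comparison of genotypes over the 3 treatments also counts arrays of the same experiment as independent, in its SE and its p. Exact permutation tests, two-sided with 2 times the smaller tail for differences and by absolute size for correlations, used SciPy 1.17.1, and those of correlations were adjusted over 6 relations. The methods describe 3 independent experiments, each giving cells of both genotypes, and the replicate number was taken for the experiment. After group means were removed, arrays with the number 1, 2 or 3 had mean correlations of 0.01, 0.07 and 0.14 among themselves, and arrays of unlike numbers -0.03. The replicate block was fitted as an alternative, beside all 18 arrays, quantile normalization, median centring and a filter on dim probe sets (mean of at least 5). Further alternatives were no variance trend, array weights, the compared groups alone, a paired t-test by replicate number and leaving out arrays or replicate numbers. The methods name paired tests for JAK2V617F+ and JAK2V617F- cells of individual mice. Pairing treatments by replicate number was an extension of that made here. Promoters were taken from RefSeq windows of GRCm38.p6, with none for Car2. The fits were tested on simulated data.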

Additional observations from a re-analysis of the deposited data

Results flagged for a closer look

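The Pklr signal of untreated JAK2V617F- replicate 3 was 8.49 on the log2 scale, against 3.06 to 5.20 on the other 8 JAK2V617F- arrays. Its gap to the nearest array took up 0.606 of the range of the 9 arrays, above the critical value of 0.493 of Dixon's test, which flags about 1 group in 20 by chance. Of the 6 sets of arrays examined (3 genes in 2 genotypes), it was the only one flagged. On the same array Ermap was 10.56 and Car2 10.78.

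The difference of Ermap between the antibodies had opposite signs in the genotypes. It was the only one flagged among 3 comparisons of treatments scanned in each of 3 genes. The share of all probe sets with this pattern was not computed. TNFR2 BA minus TNFR1 BA was positive in 3 of 3 replicate numbers of JAK2V617F+ cells and negative in 3 of 3 of JAK2V617F- cells. All 3 in JAK2V617F+ cells, and the -0.35 of JAK2V617F- replicate 3, were smaller in size than the within-group SD of 1.20. The difference of the mean differences was 2.97. Tested by interaction, a contrast added after the values were seen, it was 2.97 (95% confidence interval 0.31 to 5.63, limma adjusted p = 0.9995), and 0 of 10335 probe sets passed.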

How the results depend on the processing

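For Car2, Ermap and Pklr, 810 refitted values of the tested comparisons were compared with the main ones, and 0 passed the threshold (lowest limma adjusted p = 0.411, Ermap with TNFR2 BA in JAK2V617F- cells without TNFR2 BA JAK2V617F- replicate 3), while 30 changed sign. With all 18 arrays, the differences of Car2 in JAK2V617F+ cells became 1.20 with TNFR1 BA and 0.96 with TNFR2 BA, and its interactions 1.18 and 0.998. The relation of Ermap and Pklr in JAK2V617F+ cells turned from r = -0.07 to 0.24 with deviations from group means, where that of Car2 and Ermap passed (r = 0.81, main 0.70). Within replicate numbers, an alternative chosen after seeing the data, no relation passed, and a single one in JAK2V617F+ cells could not pass alone. That of Car2 and Ermap in JAK2V617F+ cells was 0.20, and that of Car2 and Pklr in JAK2V617F- cells turned from 0.11 to -0.65. The genotype differences of the 3 genes kept their sign under every alternative run, which the choice of the genes on this difference favours. Some sizes moved, as for Car2 in untreated cells, from 1.94 to 0.15 with all 18 arrays.

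Leaving out an array or replicate number gave these ranges where the sign changed. For Car2 they were -0.58 to 0.31 (TNFR2 BA minus TNFR1 BA, JAK2V617F+), -0.13 to 0.22 (TNFR1 BA, JAK2V617F-), -0.30 to 0.22 (TNFR2 BA, JAK2V617F-), -0.32 to 0.20 (TNFR2 BA minus TNFR1 BA, JAK2V617F-) and -1.27 to 0.0177 (interaction with TNFR2 BA). For Pklr they were -0.37 to 3.36 (TNFR2 BA, JAK2V617F+), -0.74 to 3.07 (TNFR2 BA minus TNFR1 BA, JAK2V617F+), -1.87 to 0.85 (TNFR1 BA, JAK2V617F-), -2.72 to 0.46 (TNFR2 BA, JAK2V617F-) and -1.07 to 0.25 (TNFR2 BA minus TNFR1 BA, JAK2V617F-).

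Counts of all probe sets called depended on few arrays. Leave-one-out fits called 0 to 132 with TNFR1 BA in JAK2V617F+ cells (main 1), 0 to 55 with TNFR2 BA there (main 3), 0 to 1 between the BAs there and for TNFR2 BA against untreated and against TNFR1 BA in JAK2V617F- cells, 0 to 20 and 0 to 7 for the interactions with TNFR1 and TNFR2 BA, 6 to 119 for genotype (main 37) and 52 to 135 for replicate number (main 124). The highest counts with either BA against untreated JAK2V617F+ cells, for the interactions and for genotype came without untreated JAK2V617F+ replicate 1, which leaves 1 array in that group, assumed to vary like the others. With the replicate block, the pairing by experiment, 67 probe sets were called for genotype, 0 with TNFR2 BA in JAK2V617F+ cells and 1 for the interaction with TNFR1 BA, and the block changed no call of Car2, Ermap or Pklr. In JAK2V617F+ cells TNFR1 BA gave 2 after quantile normalization, 3 with no trend, and 0 with array weights or the compared groups alone, and TNFR2 BA gave 1 with all 18 arrays and 0 with array weights or the compared groups alone. With no trend, 1 was called for each interaction and 55 for replicate number. A paired t-test by replicate number had 2 pairs for either BA against untreated JAK2V617F+ cells, 3 for the other BA comparisons and 8 for genotype. After Benjamini-Hochberg adjustment this paired test called 3 with TNFR1 BA, 8 with TNFR2 BA (JAK2V617F+) and 11 for genotype. At an unadjusted p under 0.05 it called 425, 341 and 404 for TNFR1 BA, TNFR2 BA and their difference in JAK2V617F+ cells, 431, 387 and 409 in JAK2V617F- cells, and 970 for genotype. The cause of these shifts was not tested.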

Other observations

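The array left out by the study, untreated JAK2V617F+ replicate 3, had a Car2 log2 signal of 7.37, below the 17 other arrays. Its Ermap signal of 9.70 and its Pklr signal of 6.72 lay below the 8 other JAK2V617F+ arrays and above 6 and 8 of the 9 JAK2V617F- arrays.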
